A study of Canis lupus familiaris with 31 samples.

Results

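A set of 9 genes that start, build, limit or dissolve a fibrin clot was followed in the whole blood of Miniature Schnauzers with and without HTG, the excess of triglycerides in blood that is frequent in this breed. The genes were SERPINE2, PLAU, PLAUR, PLAT, F13A1, F5, TFPI, THBD and F3, and they were found in the table of read counts by their symbol. Of the 9 symbols, 8 had a row among the 32704 rows of the table, of which 18601 carry a symbol. PLAT, the gene of tissue plasminogen activator, had no row under that symbol and was not analysed here. Of the 8 genes, 6 passed edgeR's filter on low counts and were tested, while THBD and F3 lay under it.

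The groups were 13 HTG cases (8 males and 5 females) and 18 controls (10 males and 8 females), with 1 library per dog and no treatment given by the study. According to the study's methods the dogs were privately owned, were asked to be fasted, took no drug known to alter lipids and were grouped by their fasting serum triglycerides. The males were castrated and nearly all females spayed, and the cases had been screened for hormonal disorders that raise blood lipids. The diets differed from dog to dog and were not set by the study, and both groups hold blood of a single breed. The libraries of whole blood RNA were made with a kit for total RNA that removes ribosomal RNA, while the labels give polyA RNA as the molecule, and they name another extraction kit than the study's methods. RNA of platelets, white cells and red cell precursors was measured together and could not be assigned to a cell.

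As background, coagulation starts when tissue factor (F3) meets factor VIIa and ends with thrombin, which turns fibrinogen into fibrin. Factor V is the cofactor that speeds thrombin formation, and factor XIII, whose A subunit F13A1 encodes, cross-links the fibrin strands. TFPI and thrombomodulin (THBD) are brakes on these steps. Plasmin dissolves the clot once plasminogen has been cleaved by urokinase (PLAU) or tissue plasminogen activator, and the serpin protease nexin-1 (SERPINE2) inhibits thrombin as well as both activators. Much of this system is made in liver and endothelium, and platelets carry F13A1, TFPI, SERPINE2 and factor V in circulation.

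The table of counts held between 14524659 and 41533599 counts per dog (median 20588919 for the cases and 19679367 for the controls), and no 2 dogs had identical counts. Values are given as CPM, the share of a dog's counts scaled to a common library size, after TMM normalization, and tests are those of edgeR's quasi-likelihood model over 13918 genes, with P-values adjusted by the Benjamini-Hochberg procedure and a threshold of 0.05. Log2 fold changes are cases over controls, and SE is their standard error, which for edgeR was derived from the F statistic of its test. CPM were not corrected for gene length, so that levels are compared between dogs for the same gene and not between genes. The dogs were also ranked by their mean log2 CPM of small RNAs, and the 10 highest were set as the high side. This side held 5 cases and 5 controls, and the low side 8 cases and 13 controls. The lowest dog of the high side was at 1.68 and the highest of the low side at 1.41. No label names a source of this split. The study's methods describe 10 pilot libraries, also of 5 cases and 5 controls, and a batch effect. Whether these are the same dogs cannot be told from the labels. Control_03 stood apart, with the lowest total, the lowest TMM factor (0.527) and the highest score of erythroid markers (2.95), and values without it are given where they matter. Case_01 had the next lowest TMM factor (0.752) and the next highest erythroid score (2.62).

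None of the 6 tested genes passed the threshold. All 6 had a log2 fold change above 0, against 45.5% of all genes tested, and the median of the 6 was 0.32, against −0.02 over all genes tested. At an unadjusted P under 0.05 there were 3 of the 6, F13A1, SERPINE2 and TFPI, all 3 higher in the cases. Among all genes tested, 5.04% were higher in the cases at that level and 9.81% lay under it in either direction. After adjustment 5 genes of the whole table passed, or 0.0359%, and none of these was a gene described here. DESeq2 also called 0 of the 6, against 0.604% of all genes tested, with 3 of the 6 at an unadjusted P under 0.05, against 10.5%. In limma-voom 0 of the 6 were called, against 0.0% of all genes tested, and 4 lay at that level, against 11.2%. With control_03 left out the same edgeR test called F13A1 (adjusted P = 0.0467) and SERPINE2 (adjusted P = 0.0483), and 154 genes in all, or 1.11% of those tested. With case_01 left out as well, it called 0 of the 6 genes (adjusted P = 0.0943 for F13A1 and 0.0931 for SERPINE2) and 28 of 13978 genes. When DESeq2 took the small RNA split as a covariate with all 31 dogs, it called F13A1 (adjusted P = 0.0499) and 0.762% of all genes tested.

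**Figure D1:**
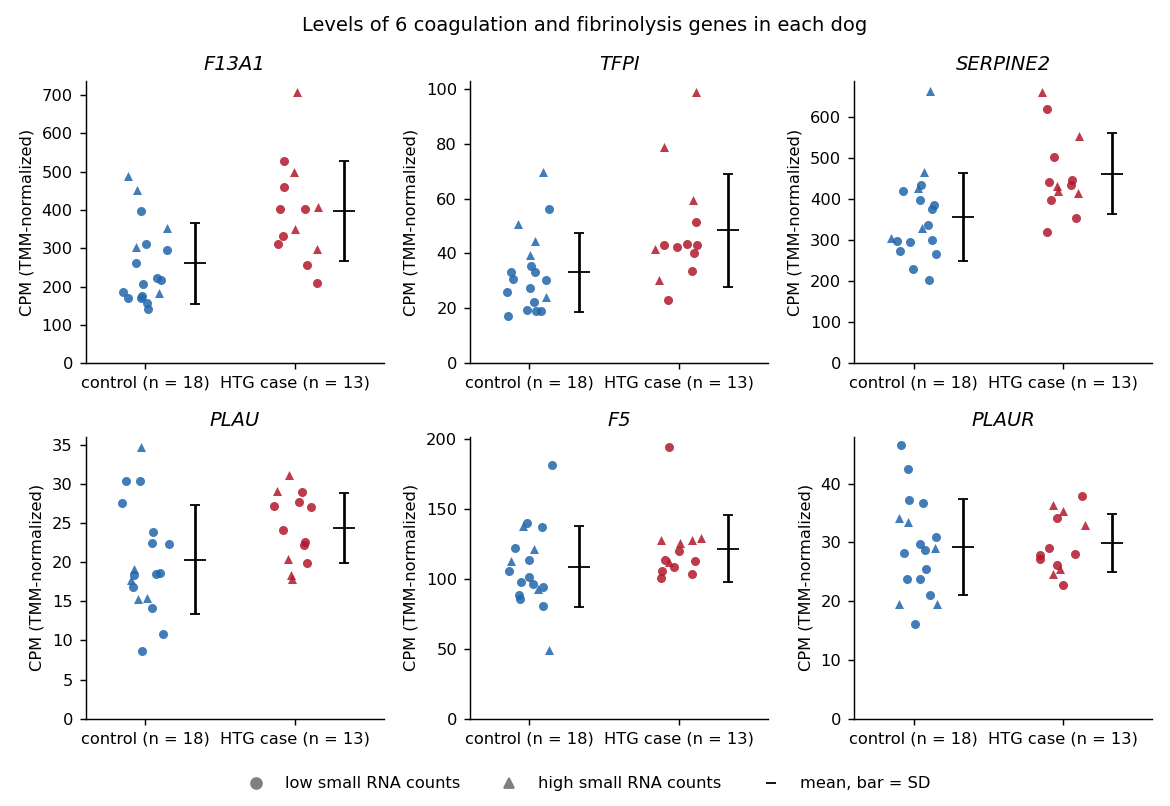
Level of 6 genes in each dog, in TMM-normalized CPM on axes that start at 0. Points are dogs, circles and triangles mark dogs with low and high small RNA counts, and bars give the mean and SD of the 18 controls and 13 HTG cases. The groups overlapped for every gene, and 12 of 13 cases exceeded the control median for F13A1, SERPINE2 and F5.

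Of the plasminogen activators, PLAU (ENSCAFG00000015190) was measured. It had 17.9 CPM in the lowest case, a median of 24.2 CPM over the cases and 31.2 CPM in the highest case, while the controls ranged from 8.65 to 34.8 CPM with a median of 18.6 CPM. The controls reached further in both directions than the cases, as 7 controls lay below all cases and 0 cases lay above all controls, and 11 of 13 cases exceeded the control median. The 13 cases averaged 24.4 ± 4.46 CPM and the 18 controls 20.3 ± 6.97 CPM (mean ± SD), with a log2 fold change of 0.27 (SE 0.15, adjusted P = 0.578 in the edgeR test). The difference did not pass the threshold. Over 18 other settings and 31 edgeR fits that each left out 1 dog, the log2 fold change of PLAU was above 0, between 0.04 and 0.34, and no adjusted P was at or under 0.05. Over 31 DESeq2 fits with the small RNA split that each left out 1 dog, it lay between 0.23 and 0.36, with no call.

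PLAUR (ENSCAFG00000004730), the receptor that holds urokinase on the surface of leukocytes, had the smallest difference of the 6 genes. It ranged from 22.8 to 38.0 CPM in the cases with a median of 28.1 CPM, and from 16.2 to 46.5 CPM in the controls with a median of 28.9 CPM. Thus the range of the cases lay inside that of the controls, and 6 of 13 cases exceeded the control median. The 13 cases averaged 29.9 ± 4.95 CPM and the 18 controls 29.3 ± 8.19 CPM (mean ± SD), with a log2 fold change of 0.03 (SE 0.12, adjusted P = 0.962 in the edgeR test). Its sign was not fixed. When a neutrophil marker score was a covariate its log2 fold change became −0.18 (SE 0.11), and in the 21 dogs with low small RNA counts it was −0.04.

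SERPINE2 (ENSCAFG00000016228), the inhibitor of thrombin and of both plasminogen activators, had between 319 and 661 CPM in the cases with a median of 435 CPM. The controls ranged from 203 to 665 CPM with a median of 334 CPM. The highest dog of all was control_03, and 8 controls lay below all cases, while 12 of 13 cases exceeded the control median. The 13 cases averaged 462 ± 98.8 CPM and the 18 controls 356 ± 107 CPM (mean ± SD). The log2 fold change of 0.38 (SE 0.13) had an unadjusted P = 0.00710 and did not pass the threshold in the edgeR test (adjusted P = 0.297). Without control_03, whose value was the highest, it was 0.45 (SE 0.11) and passed, as given above. Leaving out any other single dog did not bring the adjusted P of edgeR to 0.05.

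F3 (ENSCAFG00000020110), the tissue factor that starts coagulation, was not detected in most dogs. It had 0 counts in 13 of 13 cases and in 16 of 18 controls, and control_05 and control_10 had 2 counts each. A count of 0 allows up to 3 counts, which was between 0.0692 and 0.392 CPM depending on the depth of the dog, and 0.0108 CPM over all cases together. These limits cover counting error alone. The mean was 0 CPM in the cases and 0.00872 ± 0.0255 CPM in the controls (SD, n = 18; permutation test with 100000 resamples, two-sided, P = 0.494). In edgeR without a filter on low counts F3 had an unadjusted P = 0.0438 and an adjusted P = 0.403, which did not pass. With 4 counts in all, no difference could be detected at this depth.

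F5 (ENSCAFG00000015215), the cofactor of factor Xa, ranged from 101 to 195 CPM in the cases with a median of 113 CPM and from 48.9 to 182 CPM in the controls with a median of 103 CPM. Case_11 was the highest dog of all, and 1 case lay above all controls, while 8 controls lay below all cases and 12 of 13 cases exceeded the control median. Averages were close, as the 13 cases had 122 ± 24.0 CPM and the 18 controls 109 ± 29.1 CPM (mean ± SD), with a log2 fold change of 0.16 (SE 0.12, adjusted P = 0.698 in the edgeR test). Without case_11 the log2 fold change was 0.09, and with the neutrophil score as a covariate it was −0.05 (SE 0.09).

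F13A1 (ENSCAFG00000009509), the A subunit of the transglutaminase that cross-links fibrin, had the smallest P-value of the 6 and ranked 127 among all genes tested. The lowest case, case_12, had 210 CPM, the median case 402 CPM and the highest, case_09, 709 CPM. Among the controls the values ran from 142 CPM in control_09 over a median of 220 CPM to 490 CPM in control_03. The groups overlapped, but 12 of 13 cases exceeded the control median, 3 cases lay above all controls, 8 controls lay below all cases and 2 controls exceeded the median of the cases. The 13 cases averaged 397 ± 131 CPM and the 18 controls 261 ± 105 CPM (mean ± SD). The log2 fold change was 0.61 (SE 0.18) with an unadjusted P = 0.00196, which did not pass the threshold in the edgeR test (adjusted P = 0.210). In DESeq2 the adjusted P was 0.0863.

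When DESeq2 took the small RNA split as a covariate, F13A1 passed the threshold with a log2 fold change of 0.58 (SE 0.16, adjusted P = 0.0499), as the only one of the 6 genes with all 31 dogs in the fit. This test called 106 of the 13918 genes, or 0.762%. The call was marginal. When each dog was left out in turn, a setting chosen after seeing the data, F13A1 had an adjusted P at or under 0.05 in 9 of 31 fits and above it in 22, between 0.0131 and 0.142, with a log2 fold change between 0.51 and 0.64. Of these fits, the one without control_03 called 447 genes, or 3.21% of those tested, and 3 of the 6 genes, namely F13A1 (adjusted P = 0.0131), SERPINE2 (adjusted P = 0.0215) and TFPI (adjusted P = 0.0499). In edgeR with the same covariate the log2 fold change was 0.58 (SE 0.16, adjusted P = 0.145).

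TFPI (ENSCAFG00000014752), which inhibits the complex of tissue factor and factor VIIa together with factor Xa, had between 22.8 and 98.8 CPM in the cases with a median of 43.1 CPM. The controls ranged from 17.1 to 69.7 CPM with a median of 30.4 CPM. The lowest and highest dogs of each group were those of F13A1, namely case_12, case_09, control_09 and control_03, and 11 of 13 cases exceeded the control median. On average, the 13 cases had 48.4 ± 20.5 CPM and the 18 controls 33.2 ± 14.4 CPM (mean ± SD). The log2 fold change was 0.55 (SE 0.20), with an unadjusted P = 0.0102, and did not pass the threshold in the edgeR test (adjusted P = 0.333). Without control_03 it was 0.64 (SE 0.19, adjusted P = 0.0726 in the edgeR test).

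THBD (ENSCAFG00000005157), the thrombomodulin of the vessel wall that turns thrombin towards the activation of protein C, had too few counts for a stable level. The cases had between 0 and 7 counts with a median of 2, and the controls between 0 and 20 counts with a median of 2.5. There were 0 counts in 3 cases and 1 control, and the highest values were those of control_05 and control_08, with 20 and 17 counts. On average the 13 cases had 0.102 ± 0.0869 CPM and the 18 controls 0.234 ± 0.259 CPM (mean ± SD), a difference of −0.132 CPM that did not pass the threshold (permutation test with 100000 resamples, two-sided, P = 0.0900). In edgeR without a filter on low counts the log2 fold change was −1.11 (SE 0.55, adjusted P = 0.424). THBD was the only gene besides F3 with a lower mean in the cases.

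The differences were also taken within the split by small RNA counts. Among the 10 dogs of the high side, the log2 fold change was 0.35 (SE 0.28) for F13A1, 0.43 (SE 0.33) for TFPI and 0.18 (SE 0.22) for SERPINE2. Among the other 21 dogs it was 0.70 (SE 0.19) for F13A1, 0.50 (SE 0.19) for TFPI and 0.44 (SE 0.14) for SERPINE2. These 3 genes were thus higher in the cases on both sides. None passed on either side, where 0.0% of all genes tested were called (0 of 13465 on the high side and 0 of 14193 on the low side). PLAU was at 0.20 and 0.31 and F5 at 0.28 and 0.11 on the high and the low side. PLAUR was at 0.19 among the first and −0.04 among the second, so that its direction differed between them, and this difference was not tested. F13A1 had 453 ± 161 CPM in the 5 cases and 356 ± 122 CPM in the 5 controls of the high side, and 363 ± 105 CPM in the 8 cases and 224 ± 74.1 CPM in the 13 controls of the low side (SD).

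**Figure D2:**
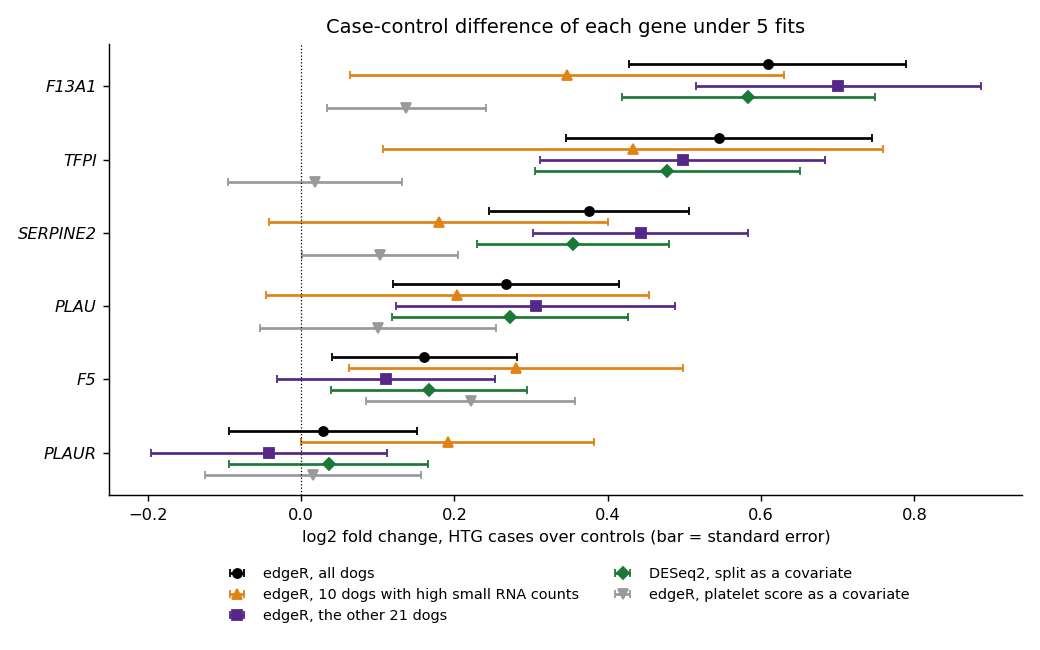
Log2 fold change of the 6 tested genes, HTG cases over controls, with its standard error as the bar, in 5 fits. F13A1, TFPI and SERPINE2 lay above 0 in all 5 fits and came nearest to 0 with the platelet score as a covariate, where TFPI was at 0.02.

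Marker genes were used to ask which blood cells moved together with the 6 genes. Scores were the mean log2 CPM of a list's tested genes, with each gene centred over the 31 dogs, and 9 lists were tested. The markers of platelets, monocytes, granulocytes, lymphocytes and red cell precursors were present in every dog, and the lowest summed level of any of these lists was 26.8 CPM, that of natural killer and cytotoxic cells in a control. The platelet score was higher in the cases by 0.52, at 0.30 ± 0.43 (SD, n = 13) against −0.22 ± 0.52 (SD, n = 18; permutation test, adjusted P = 0.0278), and 11 of 13 cases exceeded the control median. All 12 platelet genes tested were higher in the cases, 9 of them at an unadjusted P under 0.05, and their summed level ran from 961 to 4397 CPM in the cases and from 688 to 4671 CPM in the controls. The neutrophil score was higher by 0.58 (permutation test, adjusted P = 0.0453), with 5 of 7 genes higher and 1 at an unadjusted P under 0.05. Within the sides of the small RNA split the neutrophil score differed by 0.57 and missed the threshold (permutation test, adjusted P = 0.0584), while the platelet score differed by 0.47 and passed (permutation test, adjusted P = 0.0206). The other blood cell scores did not pass, and the monocyte score, of another cell type that makes factor XIII A subunit, differed by 0.13 (permutation test, adjusted P = 0.303).

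The endothelial score was higher in the cases by 0.33 (permutation test, adjusted P = 0.0278), with 3 of 4 genes higher and 2 at an unadjusted P under 0.05. It rested on 4 of 9 genes, TEK, TIE1, EGFL7 and ERG, since CDH5, ROBO4, SOX18 and PLVAP lay under the filter and CLDN5 had no row. The summed level of the endothelial list lay between 10.6 and 26.4 CPM in the cases and between 10.1 and 22.6 CPM in the controls. When the median over a list's genes replaced the mean, 0 of the 9 scores passed, and the platelet score then differed by 0.54 with an adjusted P = 0.0542 in the permutation test. In bulk RNA a larger share of platelets and more RNA per platelet cannot be told apart.

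F13A1 and TFPI followed the platelet score within both groups, and SERPINE2 did so within the controls. Each of the 6 genes was correlated with each of the 9 scores, within the 18 controls and within the 13 cases. Of these 108 correlations, 7 had an adjusted permutation P at or under 0.05, all 7 of them positive. The other genes of the table were not correlated with the scores. How many of them follow a score as closely is therefore not known, and the 7 cannot be read as particular to these genes. In the controls, F13A1 had r = 0.87 and Spearman's rho = 0.93 with the platelet score (permutation test, P = 1e-05 for both, the smallest it can give, adjusted P = 0.00054). In the cases the values for F13A1 were r = 0.90 (permutation P = 6e-05, adjusted P = 0.00162) and rho = 0.91 (permutation P = 0.00012, adjusted P = 0.00324). Without the 2 dogs farthest from the median score, r was 0.87 in the controls and 0.78 in the cases. The dogs at the ends of the F13A1 range were also near the ends of the platelet score, with case_12 at −0.58 and case_09 at 0.98 among the cases and control_09 at −1.18 and control_03 at 0.78 among the controls.

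TFPI had r = 0.90 and rho = 0.91 with the platelet score in the controls (permutation test, P = 1e-05 for both, adjusted P = 0.00054). In the cases r was 0.84 (permutation P = 0.00033, adjusted P = 0.00594), while rho was 0.74 (permutation P = 0.00503) and missed the threshold after adjustment (P = 0.0679). Without the 2 farthest dogs r was 0.89 and 0.66, respectively. SERPINE2 had r = 0.81 in the controls (permutation P = 4e-05, adjusted P = 0.00144) with rho = 0.72 (permutation P = 0.00106, adjusted P = 0.0229), and r = 0.80 without the 2 farthest dogs. In the cases SERPINE2 had r = 0.62 (permutation P = 0.0240), which missed the threshold after adjustment (P = 0.185). The r of F5 and PLAUR with the platelet score lay between −0.21 and 0.08 in both groups, and that of PLAU was 0.52 in the controls (permutation P = 0.0276, adjusted P = 0.198) and 0.11 in the cases.

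F5 and PLAUR each had a Pearson correlation with the neutrophil score that passed in 1 of the groups. F5 had r = 0.79 in the controls (permutation P = 0.00018, adjusted P = 0.00389) and rho = 0.85 (permutation P = 2e-05, adjusted P = 0.00072), with r = 0.70 without the 2 farthest dogs, against r = 0.58 in the cases (permutation P = 0.0309, adjusted P = 0.209). PLAUR had r = 0.80 in the cases (permutation P = 0.00102, adjusted P = 0.0157), rho = 0.70 (permutation P = 0.00843, adjusted P = 0.0828) and r = 0.64 without the 2 farthest dogs. In the controls PLAUR had r = 0.62 (permutation P = 0.00502, adjusted P = 0.0678) and rho = 0.68 (permutation P = 0.00214, adjusted P = 0.0385). The PLAUR of the cases had r = 0.70 (permutation P = 0.00731, adjusted P = 0.0790) with the eosinophil and basophil score, rho = 0.71 (permutation P = 0.00739, adjusted P = 0.0798) and r = 0.70 without the 2 farthest dogs. With the T cell score the cases' PLAUR had a negative r of −0.72 (permutation P = 0.00573, adjusted P = 0.0688), with rho = −0.65 (permutation P = 0.0199, adjusted P = 0.165) and r = −0.65 without the 2 farthest dogs. Among the controls, leaving out the 2 dogs farthest from the median score moved the r with the neutrophil score from 0.35 to 0.85 for SERPINE2, from −0.05 to 0.71 for PLAU, from −0.04 to 0.63 for F13A1 and from −0.04 to 0.55 for TFPI, so that the low r of these genes rested on those 2 dogs. Whether any r differed between cases and controls was not tested. With both measures centred within the sides of the small RNA split, 7 correlations passed again, and those of F13A1 with the platelet score were 0.81 in the controls and 0.91 in the cases.

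**Figure D3:**
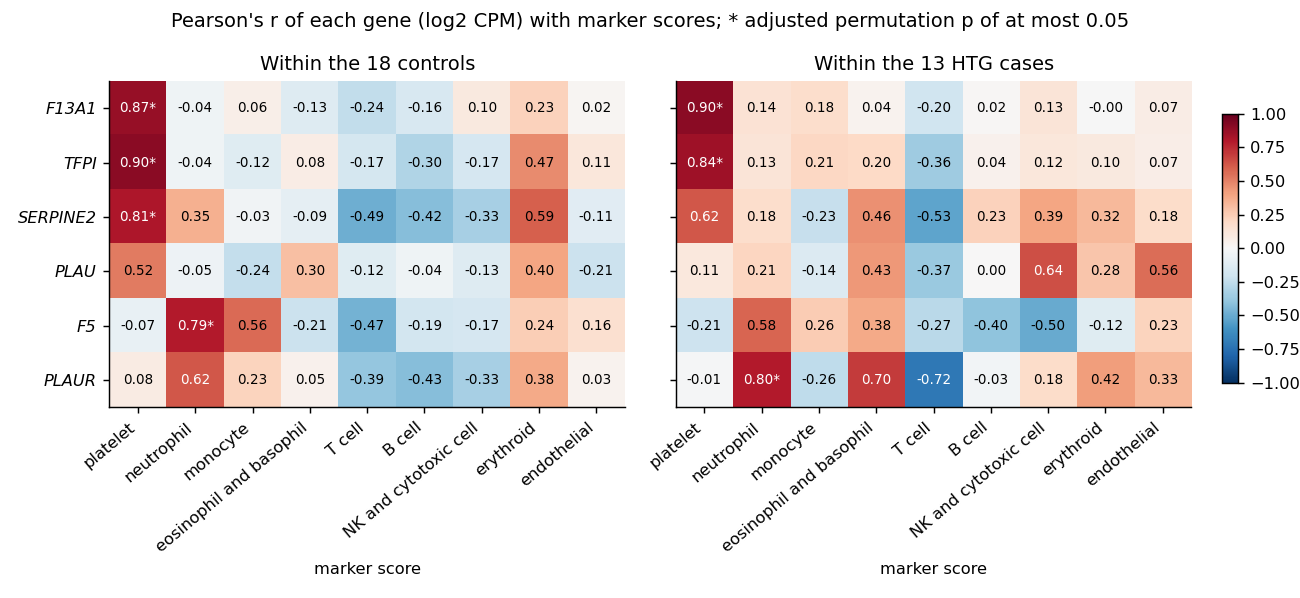
Pearson's r of the log2 CPM of each gene (rows) with 9 marker scores (columns), within the 18 controls and the 13 HTG cases, on a colour scale from −1 to 1. Asterisks mark an adjusted permutation P at or under 0.05. The 7 marked cells are F13A1 and TFPI with the platelet score in both groups, SERPINE2 with it in the controls, F5 with the neutrophil score in the controls and PLAUR with it in the cases.

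**Figure D4:**
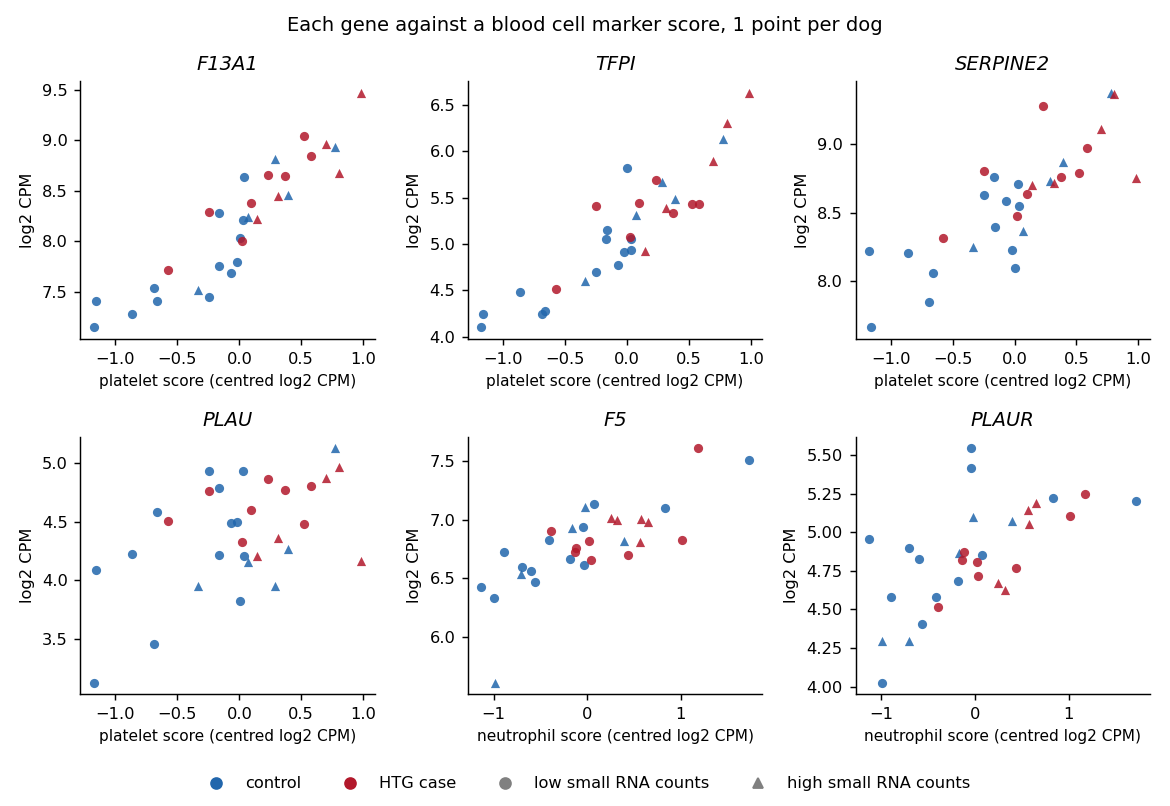
Log2 CPM of each gene against the platelet score (F13A1, TFPI, SERPINE2, PLAU) or the neutrophil score (F5, PLAUR), 1 point per dog, blue for controls and red for HTG cases, with triangles for dogs with high small RNA counts. F13A1 and TFPI lay along 1 line in both groups, with r of at least 0.84 in each, and PLAU was more scattered.

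With the platelet score as a covariate in edgeR, 0 of the 6 genes had an unadjusted P under 0.05, against 5.99% of all genes tested, and 0 of the 13918 genes passed after adjustment. The log2 fold change was then 0.14 (SE 0.10) for F13A1, 0.02 (SE 0.11) for TFPI, 0.10 (SE 0.10) for SERPINE2 and 0.10 (SE 0.15) for PLAU, and it was 0.22 (SE 0.14) for F5 and 0.02 (SE 0.14) for PLAUR. A covariate that differs between the groups also takes away group difference that it shares, so that the part of platelets and that of HTG cannot be told apart for these genes. With the monocyte score as the covariate, the values were 0.58 (SE 0.19) for F13A1, 0.54 (SE 0.21) for TFPI and 0.39 (SE 0.13) for SERPINE2. The neutrophil score as the covariate gave 0.57 (SE 0.21) for F13A1 and 0.51 (SE 0.24) for TFPI, while SERPINE2 was at 0.26 (SE 0.14, unadjusted P = 0.0718 in the edgeR test). The platelet score also moved with the split by small RNA counts, with a mean of 0.41 over the 10 dogs of the high side and −0.20 over the other 21.

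The genes of the set were also compared with each other. As a description, with both genes read from the same library of each dog, Spearman's rho of F13A1 with TFPI was 0.87 in the controls (n = 18) and 0.80 in the cases (n = 13), and that of F13A1 with SERPINE2 was 0.73 and 0.65. F13A1 with F5 had 0.14 and −0.13, and TFPI with PLAUR had 0.03 and −0.02. PLAU with SERPINE2 had 0.55 and 0.76, and F5 with PLAUR had 0.62 and 0.17. Among all tested genes with a symbol, the 3 whose log2 CPM was most like that of F13A1 over the 31 dogs, cases and controls pooled, were DPEP2 (rho = 0.94), TUBB1 (rho = 0.93), a tubulin of platelets, and PTGS1 (rho = 0.93), the cyclooxygenase of platelets. For TFPI they were EGF, IGF2BP3 and ENDOD1, each with a rho of 0.90, and for SERPINE2 they were GSN, DGKH and PTGS1, between 0.86 and 0.88. PLAUR was most like PNPLA6 and RAC2 (both 0.85), F5 was most like ATP6V1A, S100P and PSTPIP2 (0.81 to 0.87), and PLAU was most like XKR8, RBCK1 and SESN2 (0.74 to 0.83). The pooled rho also holds the difference between the groups. Within the controls and within the cases, respectively, the rho of these genes lay between 0.88 and 0.92 and between 0.89 and 0.95 for F13A1, and between 0.80 and 0.94 and between 0.82 and 0.83 for TFPI. For SERPINE2 they were 0.80 to 0.82 in the controls and 0.63 to 0.74 in the cases, for PLAUR 0.83 to 0.84 and 0.80 to 0.86, and for F5 0.78 to 0.92 and 0.63 to 0.74. PLAU had 0.84 to 0.89 in the controls and 0.36 to 0.60 in the cases. By the pooled rho, PTGS1 was among the 3 for both F13A1 and SERPINE2, while no gene was shared between these lists and those of F5, PLAUR and PLAU.

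Males and females were compared with the group as a covariate, since both sexes were in both groups. TFPI was higher in the males by 0.49 on the log2 scale (SE 0.19, unadjusted P = 0.0138) and F13A1 by 0.39 (SE 0.17, unadjusted P = 0.0306), and neither passed in the edgeR test (adjusted P = 0.959 for both). These were 2 of the 6 genes at an unadjusted P under 0.05, against 4.89% of all genes tested, and 17 genes of the table, or 0.122%, passed after adjustment. TFPI had 55.3 ± 22.5 CPM in the 8 male cases, 37.3 ± 11.0 CPM in the 5 female cases, 37.6 ± 17.0 CPM in the 10 male controls and 27.7 ± 8.47 CPM in the 8 female controls (SD). F13A1 had 438 ± 145 CPM, 333 ± 81.0 CPM, 291 ± 121 CPM and 222 ± 71.3 CPM in the same order, so that the male cases had the highest mean and the female controls the lowest for both genes. The platelet score had the same extremes, with means of 0.43 in the male cases, 0.10 in the female cases, −0.16 in the male controls and −0.29 in the female controls. With the platelet score as a further covariate, chosen after seeing the data, the difference between males and females was 0.24 (SE 0.10, unadjusted P = 0.0202, adjusted P = 0.446) for TFPI and 0.16 (SE 0.09, unadjusted P = 0.0845) for F13A1. The case-control difference was not found to depend on sex for any of the 6 genes. Their group by sex terms lay between 0.01 and 0.29 on the log2 scale, none at an unadjusted P under 0.05, against 3.93% of all genes tested, and the standard errors of 0.25 to 0.38 leave room for sizeable differences.

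Other genes of coagulation and fibrinolysis were taken from 6 lists of 49 genes, of which 45 had a row and 28 were tested. None passed the threshold in the edgeR test, 2 had an unadjusted P under 0.05, both higher in the cases, and 16 were higher and 12 lower, with a median log2 fold change of 0.06. As a share, 7.14% of the 28 had an unadjusted P under 0.05, against 9.81% of all genes tested, and 57.1% were higher, against 45.5%, so that these counts lay near those of the whole table. DESeq2 and limma-voom each called 0 of the 28, with 3 at an unadjusted P under 0.05, which again was close to their 10.5% and 11.2% of all genes. In contrast to the 6 genes described so far, these genes lay on both sides of 0. SERPINI1, neuroserpin, an inhibitor of tissue plasminogen activator, averaged 5.87 ± 2.26 CPM in 13 cases and 3.80 ± 2.19 CPM in 18 controls (mean ± SD), a log2 fold change of 0.65 (SE 0.25, unadjusted P = 0.0132, adjusted P = 0.347 in the edgeR test), and 11 of 13 cases exceeded the control median. F2RL3, the thrombin receptor PAR4 of platelets, had 15.7 ± 5.44 CPM and 11.4 ± 6.08 CPM, a log2 fold change of 0.47 (SE 0.21, unadjusted P = 0.0353, adjusted P = 0.459 in the edgeR test). With the platelet score as a covariate these became 0.15 (SE 0.20) for SERPINI1 and −0.00283 (SE 0.16) for F2RL3.

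By list, 1 of 4 tested coagulation factors and cofactors was higher in the cases, as were 2 of 3 protease-activated receptors and 4 of 6 anticoagulants. So were 5 of 6 genes listed with the inhibitors of plasmin and fibrinolysis, and 2 of 4 listed with plasminogen and its receptors. Of the vitamin K cycle and of factor V and VIII export, 2 of 5 genes were higher. A place in a list does not show that a gene has this role in blood. Some genes counted as higher were near 0, namely SERPINB6 at 0.09 (SE 0.22), SERPINB8 at 0.05 (SE 0.14) and LRP1 at 0.06 (SE 0.12). Of the protease-activated receptors, F2R and F2RL3, which thrombin cleaves, were the 2 above 0. F2RL1, the receptor PAR2 that trypsin-like proteases cleave, was at −0.28 (SE 0.30). In edgeR, none of the following 8 genes was called. ENO1, an enolase that also binds plasminogen, was at a log2 fold change of 0.26 (SE 0.13). F11, coagulation factor XI, was at 0.37 (SE 0.23), PROS1, the protein S that assists activated protein C, at 0.32 (SE 0.20), and ADAMTS13, which cleaves von Willebrand factor, at 0.29 (SE 0.22). SERPINC1, antithrombin, was at −0.43 (SE 0.25), LMAN1, a carrier that exports factors V and VIII, at −0.19 (SE 0.20), FGL2, a fibrinogen-like protein, at −0.12 (SE 0.09), and GGCX, the vitamin K-dependent carboxylase, at −0.09 (SE 0.08). Single dogs moved some of these values, as F11 was at 0.23 without case_04, PROS1 at 0.19 without case_09, GGCX at −0.05 without case_08 and LMAN1 at −0.02 without control_09.

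Several coagulation genes known from the liver had few or no counts in blood, while others such as SERPINC1 and F11 had counts in all 31 dogs and were tested. PLG, the plasminogen on which urokinase acts, and HRG, a plasma protein that binds plasminogen, had 0 counts in all 31 dogs. FGA, FGB and FGG, the fibrinogen chains, had at most 1 count in any dog, F7 and F10 at most 3, and PROC, protein C, at most 2. F2, prothrombin, reached 28 counts in a control and 9 in a case. All 9 lay under the filter on low counts. Counts of at most 3 in any dog are too few to compare the groups. No difference between them was therefore detectable for PLG, HRG, PROC, F7, F10 and the fibrinogen chains at this depth.

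**Figure D5:**
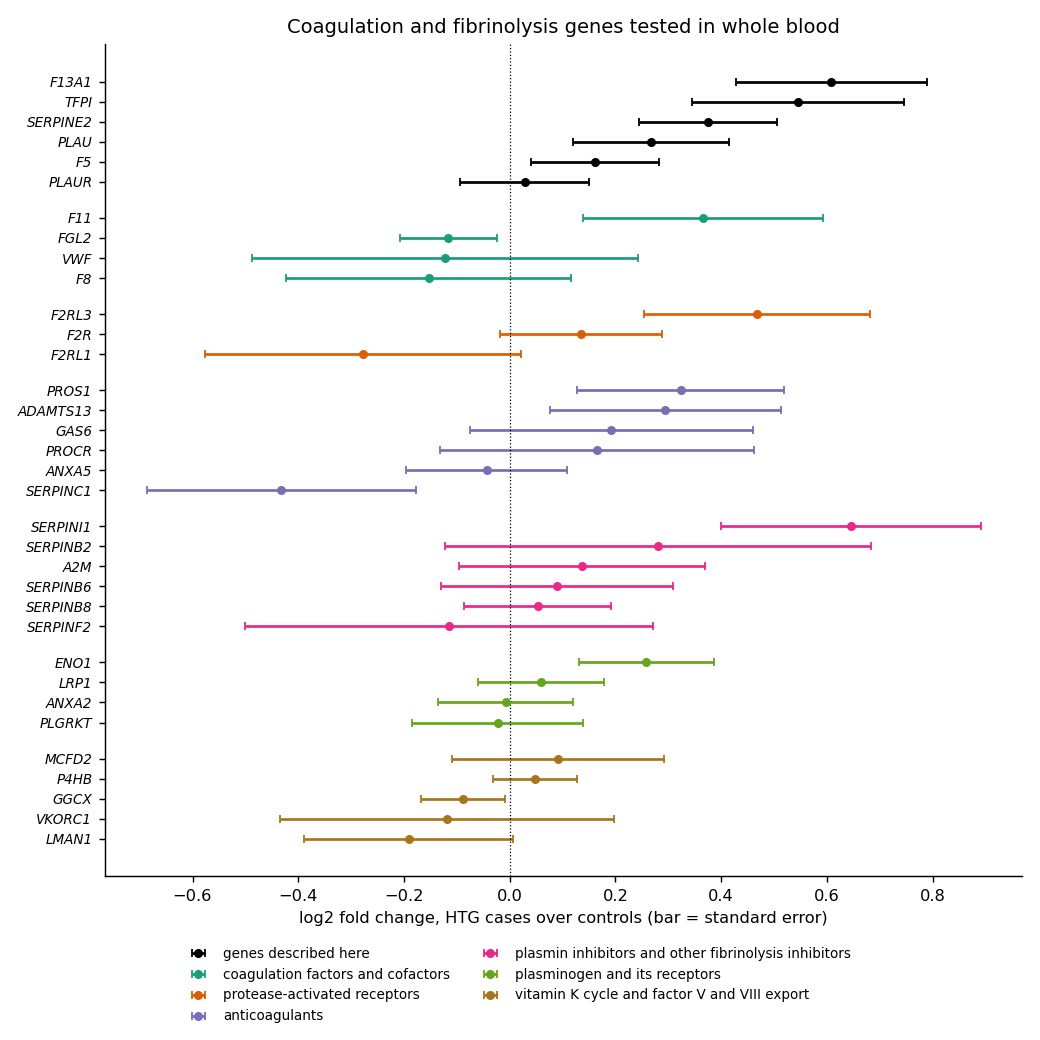
Log2 fold change (HTG cases over controls) of the 6 genes and 28 others of coagulation and fibrinolysis, with the standard error as the bar. The 6 genes described first are in black and those of the 6 lists in colours by role. The 6 lay above 0, while 16 of the 28 others were above and 12 below it, and no gene passed the threshold after adjustment.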

How the data were processed

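RNA of whole blood from 31 Miniature Schnauzers, 13 HTG cases and 18 controls, was sequenced as 1 library per dog. The authors trimmed reads with Trimmomatic, aligned them to the Dog10K_Boxer_Tasha genome with HISAT2 and deposited raw counts of read pairs per gene, taken where both mates mapped. The counting program, its strand setting and the annotation are not given in the sources used here, so that reads of overlapping or antisense genes may be included. Rows carry Ensembl dog gene identifiers, mostly with a symbol, and no coordinates. Totals ranged from 14524659 to 41533599 counts per dog, and intervals and limits cover counting error alone.

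The labels gave the group and sex of each dog, and the dogs are separate animals. The genes, lists and tests were chosen with earlier results of these data known, so that they are no independent support for any pattern. In R 4.3.3, edgeR 4.0.16 removed low genes (filterByExpr by group), normalized with TMM and compared the groups (glmQLFit, glmQLFTest) over 13918 genes, without covariates, with Benjamini-Hochberg adjustment at 0.05. The study's own model was DESeq2 with a batch term, which was left out here because the labels name no batch. DESeq2 with the small RNA split as a covariate is the setting of the same form. Whether the split is that batch cannot be told. Scores and correlations used log2 CPM (prior count 2) and two-sided permutation tests with 100000 resamples (numpy 2.4.6, scipy 1.17.1, pandas 2.3.3), adjusted over 9 scores and 108 correlations. For edgeR, SE is the size of the log2 fold change divided by the square root of the F statistic of its test. The tests were checked on simulated counts.

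All 9 genes were named, as were the 10 pathway genes with the smallest unadjusted P, up to 3 genes most like each tested gene (Spearman's rho, small RNA rows left out) and marker genes where a score needed them. Alternatives were DESeq2 1.42.0, limma-voom 3.58.1, other normalizations and filters, sex, the replicate number, the split by small RNA counts or marker scores as covariates, parts of the dogs, and each dog left out. Some genes are not reported here.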

Additional observations from a re-analysis of the deposited data

How the results depend on the processing

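Of the 6 genes, 0 passed the adjusted threshold in edgeR, and this held in the other settings except DESeq2 with the small RNA split as a covariate, where 1 passed (F13A1), 9 of the 31 fits of that kind that left out 1 dog, and the edgeR test without control_03, where 2 passed. Over the edgeR fits that each left out 1 dog the number was between 0 and 2. Over the DESeq2 fits with that covariate that each left out 1 dog, chosen after seeing the data, it was between 0 and 3, with 3 without control_03, where 447 genes passed. Of the 28 other coagulation and fibrinolysis genes, 0 passed in these settings, except that these DESeq2 fits called SERPINI1 without control_03 (adjusted P = 0.0409) and ENO1 without control_09 (adjusted P = 0.0404). The number of genes passing in the whole table, 5 in edgeR, was 84 in DESeq2, 106 in DESeq2 with the split, 28 without case_01 and control_03, 1 with at least 10 counts in every dog, 1 with the monocyte score and 1 in DESeq2 with the split and the platelet score, a setting chosen after seeing the data. It was 0 in limma-voom, in the 10 dogs with high small RNA counts, in the other 21 dogs, and with the platelet or the neutrophil score, and between 1 and 154 when each dog was left out. The cause of these changes was not tested. PLAUR changed direction, to a log2 fold change of −0.0421 in the 21 dogs with low small RNA counts and −0.176 with the neutrophil score, and it lay between −0.00946 (without control_10) and 0.0799 when each dog was left out in edgeR, with −0.00503 without case_11. F5 was at −0.0539 with the neutrophil score. With the platelet score, in edgeR and in DESeq2 with the split, F2RL3 was at −0.00283 and −0.0168, PROS1 at −0.124 and −0.0865, and LMAN1 at 0.19 and 0.25. With the median over a list's genes, 0 of the 9 marker scores passed in place of 3, and without control_03, chosen after seeing the data, 3 passed.

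A case and a control share each of 13 numbers in their titles. In the paper the dogs of each group are numbered by falling triglycerides, so that a shared number does not pair dogs. The deviations of same-numbered dogs from their group means correlated between −0.44 and 0.26, in 3 of 13 pairs above 0.1. Of the 13 cases, 1 was most like the control of its own number. A replicate block by number leaves out the controls with an unshared number, which had the lowest triglycerides of their group. With this block 0 genes of the table and 0 of the 6 passed. F13A1 was then at 0.63 (SE 0.21, adjusted P = 0.706 in the edgeR test), and PLAUR was at −0.0638. Depth limits THBD, F3, PLG, HRG and the fibrinogen genes, whose counts were near 0.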
